A study of Mus musculus with 6 samples.

Results

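The 10 genes described here are hypoxia-induced genes that do not belong to glycolysis: Bnip3, Ndrg1, Ndufa4l2, Adm, Ddit4, Egln1, Egln3, Vegfa, Car9 and Ankrd37. They were chosen by their measured levels: each was low in the Dox-maintained Erk line and had come back in part or in full by 96 hours without Dox, and they are 10 of 18857 genes with reads in at least 1 library. Their levels with Dox, during Dox withdrawal and in untreated wild-type cells therefore chose them and are given below as description, with no test. All 10 were found by gene symbol and NCBI gene ID, and each had reads in all 6 libraries.

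The data were polyA RNA sequencing of mouse embryonic stem cells (ESCs) of the KH2 line, of C57BL/6 x 129 background, with 1 library per group. The groups in engineered cells, labelled iErk1; Erk KO, were a library with Dox (doxycycline), libraries 48 and 96 hours after its withdrawal, and a further 96 hour withdrawal library to which PD0325901 had been added for the final 48 hours. Wild-type KH2 cells were either treated with PD0325901 for 48 hours or left untreated. PD0325901 blocks Mek, the kinase that activates Erk. By their label the engineered cells are knocked out for Erk and carry a Dox-inducible Erk1, and the 4 engineered libraries share this genotype. The labels give neither the PD0325901 dose, the oxygen level and cell density of the cultures, nor whether the engineered line is 1 clone.

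The cell response to low oxygen runs through HIF, a pair of transcription factor subunits. With oxygen present, prolyl hydroxylases of the Egln family mark the HIF alpha subunit, the Vhl ubiquitin ligase binds it, and it is degraded. With little oxygen the alpha subunit stays, joins Arnt and binds DNA at a short core, ACGTG or GCGTG, in front of its target genes. Besides glycolytic enzymes these targets include genes for blood vessel growth, for removal or rewiring of mitochondria, for pH control and for the hydroxylases themselves. Some targets also answer to other signals, as Ddit4 does to amino acid and endoplasmic reticulum stress.

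Library totals ran from 9.05 to 9.95 times 1e6 uniquely mapped reads, and 16042 to 17403 genes had at least 1 read. Levels are given as RPKM, the reads of a gene divided by its length in kilobases and by the library total in 1e6, and 1 read on a 2 kb transcript equals 0.0502 to 0.0553 RPKM. No group had a replicate. Folds therefore compare libraries rather than conditions, and the 95% intervals beside them hold counting error alone. Mapk3, which encodes Erk1, had 14.8 RPKM with Dox, 6.86 RPKM after 48 hours and 6.75 RPKM after 96 hours without it, against 56.4 RPKM in untreated KH2 cells. The 10 ESC markers summed to between 2922 and 4356 RPKM with 0 at 0 reads, but not all were steady. Pou5f1 ranged over the 6 libraries from 539 to 769 RPKM, Tdgf1 from 551 to 903 RPKM and Dppa5a from 536 RPKM with Dox to 1807 RPKM in treated KH2 cells, and, named after their values were seen, Nanog from 105 to 397 RPKM and Utf1 from 28.8 to 262 RPKM. Fibroblast markers were present too, and the summed level of 16 of them was 396 RPKM with Dox, 346 RPKM after 48 hours and 378 RPKM after 96 hours, against 960 RPKM in untreated KH2 cells, with 0 of the 16 genes at 0 reads in any library. In these bulk samples fewer cells that express a gene and less RNA per cell cannot be told apart.

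RefSeq promoter windows, from 250 bases before to 50 bases after the annotated start, were at hand for 8 of the 10 genes, and Ndrg1 and Ndufa4l2 were not among them. The windows shown span the range of HIF core matches, from Bnip3 with 5 and Ankrd37 with 4, over Ddit4 with 2, to the first of 2 Vegfa windows with 0, and the number of matches is not set against the levels below. Sequences are written from 5′ to 3′ on the gene's strand, with capitals marking ACGTG or GCGTG read on either strand.
Bnip3 promoter window (GRCm38.p6, chr7:138909457-138909756, minus strand): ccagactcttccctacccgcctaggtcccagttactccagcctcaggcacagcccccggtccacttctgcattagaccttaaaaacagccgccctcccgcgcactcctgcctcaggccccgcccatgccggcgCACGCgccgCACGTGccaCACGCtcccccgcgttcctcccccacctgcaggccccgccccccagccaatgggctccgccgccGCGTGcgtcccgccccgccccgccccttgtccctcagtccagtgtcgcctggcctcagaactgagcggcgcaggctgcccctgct
Ankrd37 promoter window (GRCm38.p6, chr8:45999801-46000100, minus strand): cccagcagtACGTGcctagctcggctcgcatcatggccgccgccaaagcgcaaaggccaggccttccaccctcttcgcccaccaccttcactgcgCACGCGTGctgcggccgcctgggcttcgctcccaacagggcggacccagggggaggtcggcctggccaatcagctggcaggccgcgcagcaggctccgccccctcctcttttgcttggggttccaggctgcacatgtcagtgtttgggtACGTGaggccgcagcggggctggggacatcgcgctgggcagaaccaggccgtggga
Ddit4 promoter window (GRCm38.p6, chr10:59951721-59952020, minus strand): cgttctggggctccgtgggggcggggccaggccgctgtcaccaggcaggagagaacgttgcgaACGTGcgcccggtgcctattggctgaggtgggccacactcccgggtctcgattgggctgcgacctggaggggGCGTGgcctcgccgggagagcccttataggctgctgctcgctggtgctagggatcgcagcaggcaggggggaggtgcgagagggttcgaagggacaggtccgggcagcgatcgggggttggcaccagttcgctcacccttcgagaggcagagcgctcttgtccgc
Vegfa promoter window (GRCm38.p6, chr17:46032328-46032627, minus strand): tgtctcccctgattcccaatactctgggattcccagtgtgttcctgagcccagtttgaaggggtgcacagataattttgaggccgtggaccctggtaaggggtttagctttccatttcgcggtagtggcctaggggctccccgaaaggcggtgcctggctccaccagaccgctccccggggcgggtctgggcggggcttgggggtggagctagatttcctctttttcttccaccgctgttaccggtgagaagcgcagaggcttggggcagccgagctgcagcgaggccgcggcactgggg

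In the Bnip3 window, 3 motifs lie close together. A palindromic CACGTG, which reads as ACGTG on both strands and is counted as 2 matches, begins 108 bases before the start and has a GCGTG on the opposite strand on each side, at 117 and 99 bases before it. A further GCGTG begins 35 bases before the start. The Ankrd37 window has ACGTG at 241 and at 6 bases before the start and an overlapping pair of GCGTG matches, 1 per strand, at 155 and 152 bases. The Ddit4 window has ACGTG at 187 and GCGTG at 115 bases before the start. Among the windows not printed, Car9 has ACGTG on the opposite strand 18 bases before the start, Egln1 has GCGTG at 126 and ACGTG at 68 bases, Egln3 has ACGTG at 229 bases, and Adm has 2 GCGTG matches. The other Vegfa window (chr17:46025114-46025413) has 1 of each motif and belongs to a later annotated start. It lies downstream of the printed Vegfa window on the gene's strand, inside the gene. Vegfa enters the counts of windows with a match through this downstream window alone. Of the 9 windows, 8 hold ACGTG or GCGTG, which is 88.9%, and 7 hold ACGTG, which is 77.8%. Of all 32851 RefSeq windows 43.8% hold either motif and 19.6% hold ACGTG. Either motif is also in 81.5% of the windows of glycolytic hypoxia-induced genes, 77.8% of those of other hypoxia-induced genes and 76.5% of those of the integrated stress response and of p53 targets, lists described below, and ACGTG is in 48.1%, 47.2%, 35.3% and 29.4% of the windows of these 4 lists. Both motifs contain a CG, and windows rich in CG pairs hold them more often. Among windows with 10 to 19 CG pairs 60.4% hold either motif and 26.4% hold ACGTG, and among those with 20 to 29 the shares are 71.9% and 29% (the median of the 9 windows is 16 pairs). A match is a string of letters in this window and was not measured as a bound site.

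All 10 genes were lower in the Dox-maintained line than in untreated KH2 cells. The folds ran from 3.14 for Vegfa to 37.5 for Adm, and the 95% counting interval lay below 1 for each. A size rule was applied to all genes: a ratio of at least 2-fold on RPKM plus 0.5, an interval that excludes 1, 20 or more reads summed over the pair, and 1 RPKM or more where the gene is higher. By it 9 of the 10 genes were lower, and Car9 could not be assessed at 0.16 RPKM with Dox and 0.95 RPKM in KH2 cells. These levels chose the genes. Among all 12421 genes assessed, 21.4% were lower and 2.76% higher, with a median log2 ratio of −0.37. TMM scaling, which sets aside that general shift, put 1008 genes higher and 1434 lower in place of 343 and 2662, and the Vegfa log2 ratio was then −1.22 in place of −1.62, while that of Ndufa4l2 was −4.37 in place of −4.74.

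**Figure D1:**
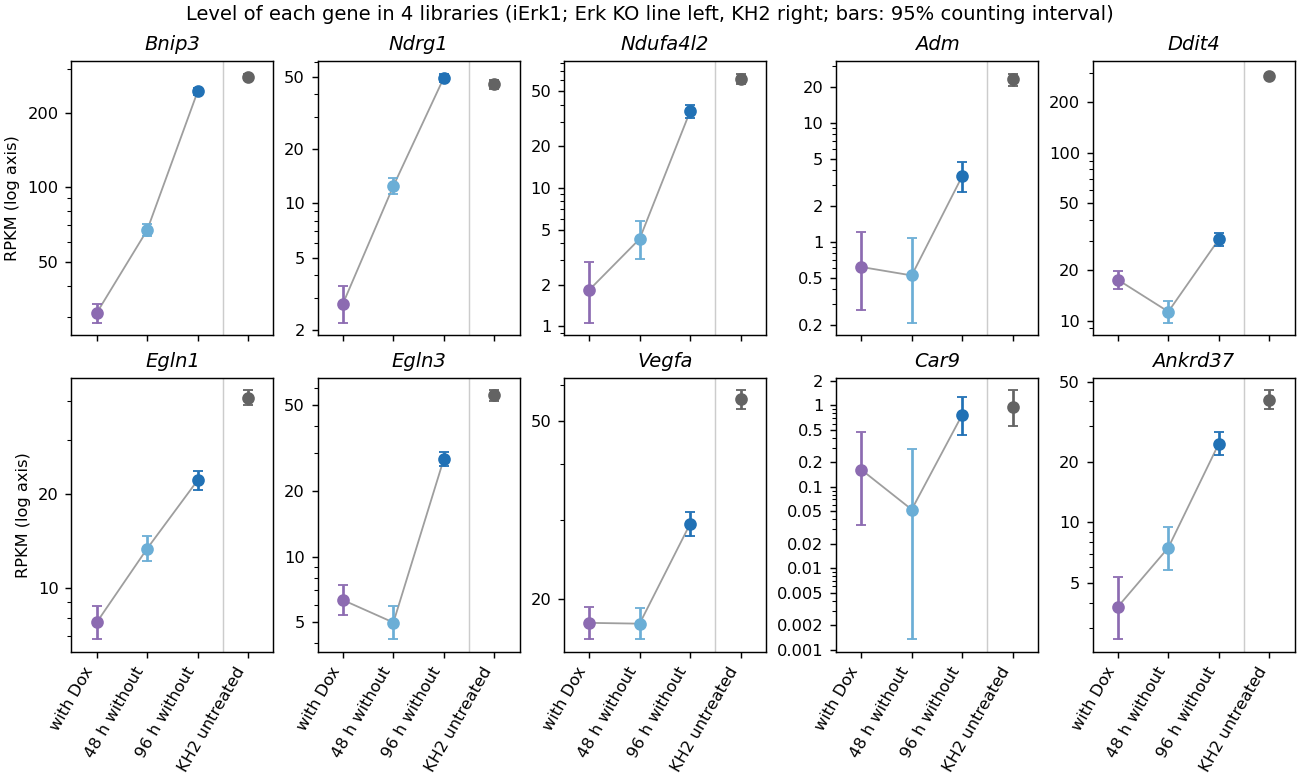
RPKM on log axes of each of the 10 genes in the engineered line with Dox, 48 and 96 hours without Dox, and in untreated KH2 cells, 1 library per point with 95% counting intervals. All 10 genes are lower with Dox than in KH2 cells and higher at 96 than at 48 hours without Dox, and Ndrg1 alone ends above the KH2 level.

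The hydroxylase genes stand first, since their products act on HIF itself. Egln1 encodes the main oxygen-sensing prolyl hydroxylase. It had 7.72 RPKM with Dox, 13.4 RPKM after 48 hours and 22.2 RPKM after 96 hours without Dox, against 41.0 RPKM in untreated KH2 cells. The level stepped up at both times and ended at 54.2% of the KH2 level (interval 49.5% to 59.2%). Egln3, a hydroxylase gene that is itself strongly hypoxia-induced, had 6.31, 4.97 and 28.2 RPKM at the same 3 times and 55.2 RPKM in KH2 cells. The ratio of 48 hours to Dox was 0.788 (0.620 to 0.999), and that of 96 to 48 hours was 5.67 (4.70 to 6.88).

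Bnip3 and Ndufa4l2 act in mitochondria. Bnip3, an outer membrane protein that promotes the removal of mitochondria by autophagy, had 31.0 RPKM with Dox, 67.0 RPKM after 48 hours and 244 RPKM after 96 hours, against 279 RPKM in KH2 cells. It was 2.16-fold higher at 48 hours (1.95 to 2.40) and 7.86-fold higher at 96 hours (7.17 to 8.63) than with Dox. Ndufa4l2, a relative of the respiratory chain protein Ndufa4 that lowers oxygen use in hypoxic cells, had 17 reads with Dox, 41 after 48 hours and 351 after 96 hours, and 553 in KH2 cells. In RPKM these are 1.83, 4.29, 35.8 and 61.7. With 19.5-fold (12.0 to 33.9) it had the largest ratio of the 10 genes between 96 hours without Dox and Dox, and its paralog Ndufa4 did not pass in that comparison.

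Ndrg1, a stress-responsive gene named for its repression by N-Myc, had 2.78 RPKM with Dox, 12.4 RPKM after 48 hours and 49.3 RPKM after 96 hours, against 45.4 RPKM in KH2 cells. It had the largest early ratio, 4.48-fold at 48 hours (3.49 to 5.82), and reached 17.8-fold at 96 hours (14.1 to 22.7). In the authors' coverage column reads lay over 61.3% of its length with Dox, 92.0% at 48 hours and 99.2% at 96 hours, against 98.2% in KH2 cells. Covered length rises with the number of reads, so this restates the counts. Ankrd37, a small ankyrin repeat protein gene, had 3.81, 7.50 and 24.7 RPKM at the 3 times and 40.7 RPKM in KH2 cells. It ended at 60.5% of the KH2 level (50.9% to 71.8%).

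The 2 genes for secreted vascular factors differed in size. Vegfa, the main growth factor for endothelial cells, had 17.7 RPKM with Dox, 17.7 RPKM after 48 hours and 29.5 RPKM after 96 hours, against 55.7 RPKM in KH2 cells. It was flat over the first 48 hours, with a ratio of 0.996 (0.888 to 1.12), and 1.66-fold higher at 96 hours (1.50 to 1.84), which did not reach the 2-fold limit. Adm, which encodes the vasodilator peptide adrenomedullin, had 8 reads with Dox, 7 after 48 hours and 49 after 96 hours, against 290 in KH2 cells. Its 96 hour level was 5.79-fold that with Dox (2.72 to 14.2) and still 15.4% of the KH2 level (11.2% to 20.9%).

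At 96 hours Ddit4 was the lowest of the 10 genes relative to KH2 cells. It encodes an inhibitor of the growth kinase complex mTORC1 and was, with Bnip3, the most abundant of the 10 in KH2 cells. Its level was 17.5 RPKM with Dox, 11.3 RPKM after 48 hours and 30.5 RPKM after 96 hours, against 288 RPKM in KH2 cells. The 48 hour library was 1.55-fold lower than that with Dox (1.28 to 1.88), the 96 hour library 1.74-fold higher (1.50 to 2.02), and neither passed the size rule. At 96 hours it was at 10.6% of the KH2 level (9.64% to 11.6%). Car9, a cell surface carbonic anhydrase used in pH control, was near the detection limit, with 3 reads with Dox, 1 after 48 hours and 15 after 96 hours, against 17 in KH2 cells. Its 96 hour ratio of 4.73 has an interval of 1.34 to 25.5, and too few reads for the size rule.

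**Figure D2:**
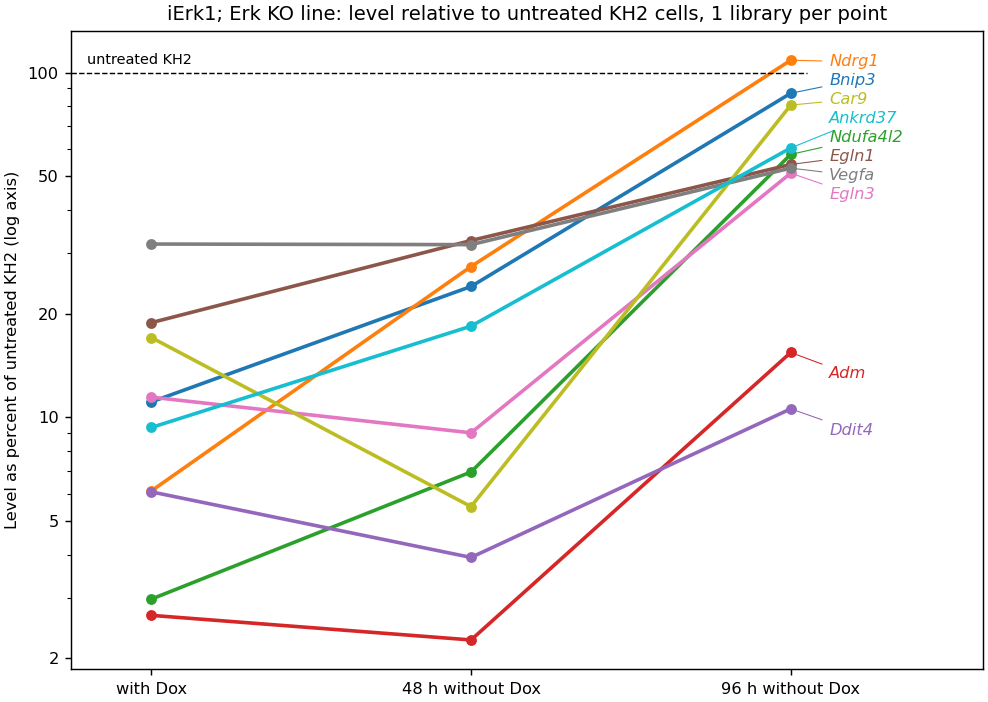
Level of each gene in the engineered line as a percent of untreated KH2 cells (log axis), with Dox and after 48 and 96 hours without Dox, 1 library per point. At 96 hours 8 of the 10 genes lie at 51.1% or more of the KH2 level, while Adm is at 15.4% and Ddit4 at 10.6%.

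Counted by the size rule, 3 of the 10 genes were higher after 48 hours than with Dox (Bnip3, Ndrg1 and Ndufa4l2), where 2.77% of 11386 genes were higher and 2.13% lower. Ndufa4l2 rests on the pseudocount: at 1 it was at a log2 ratio of 0.90 in place of 1.04 and 2 passed, and Adm and Car9 had too few reads to be assessed. After 96 hours 7 of the 10 were higher than with Dox, where 7.62% of 11804 genes were higher and 2.07% lower. Vegfa and Ddit4 fell short of the limit and Car9 could not be assessed. Between 48 and 96 hours 7 of the 10 were higher, where 4.55% of 11722 genes were higher and 0.469% lower, with Ddit4 passing in that step and Egln1 and Vegfa not. These 3 comparisons share libraries and used the levels that chose the genes, so nothing is read from the counts. Over the same times the fibroblast marker sum was 346 and 378 RPKM after withdrawal, against 396 RPKM with Dox. Primitive endoderm markers, by contrast, summed to 70.0 RPKM with Dox, 54.7 RPKM after 48 hours and 23.5 RPKM after 96 hours, against 69.2 RPKM in KH2 cells, and 6 of the 9 were lower after 96 hours than with Dox. Their part in the levels of the 10 genes was not tested.

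At 96 hours without Dox the genes spanned a wide range relative to untreated KH2 cells. Ndrg1 was at 108.7% (100.6% to 117.5%), Bnip3 at 87.2% (83.6% to 90.9%), Ankrd37 at 60.5%, Ndufa4l2 at 58.0%, Egln1 at 54.2%, Vegfa at 52.9% and Egln3 at 51.1%, and Car9 at 80.6% had an interval of 37.46% to 171.5%. The intervals of the 5 genes from Ankrd37 to Egln3 overlap with a neighbour in this order, so their order is within counting error. By the size rule Adm and Ddit4 were lower than in KH2 cells and 0 of the 10 were higher, where 16.0% of 12625 genes were lower and 4.29% higher. The median log2 ratio of all genes in this comparison was −0.27. With TMM scaling the calls were 1025 higher and 1174 lower in place of 541 and 2016, and Bnip3 turned from a log2 ratio of −0.20 to 0.10. Ndrg1 was at 0.12 and 0.41 and Ddit4 at −3.22 and −2.93 with library totals and TMM scaling.

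The library with both 96 hours without Dox and PD0325901 is a further 96 hour withdrawal library. Its comparison shares with those above the Dox library, whose low levels chose the genes. Ratios above 1 were thus favoured by that choice, and nothing is read from the counts. All 10 genes had a ratio above 1 in this comparison. Ndrg1 had 69.3 RPKM, against 2.78 RPKM with Dox, a 24.9-fold ratio (19.8 to 31.8), and Ndufa4l2 had 40.1 RPKM, against 1.83 RPKM, or 21.9-fold (13.5 to 38.0). Bnip3 had 276 RPKM, against 31.0 RPKM. Vegfa passed here at 2.11-fold (1.91 to 2.33), with 37.5 RPKM, against 17.7 RPKM, but not with TMM scaling, where its log2 ratio was 0.95. By the size rule 8 of the 10 were higher, where 10.9% of 11918 genes were higher and 3.08% lower, Ddit4 at 1.53-fold did not pass, and Car9 had 16 reads against 3 and could not be assessed. The fibroblast marker sum was 1268 RPKM in this library, against 396 RPKM with Dox, and its part in these ratios was not tested.

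PD0325901 treatment was the comparison furthest from the choice of the genes, although the untreated KH2 and 96 hour libraries in it were used for that choice. In KH2 cells Ndrg1 had 85.3 RPKM treated, against 45.4 RPKM untreated, 1.88-fold higher (1.75 to 2.02). Egln1 had 67.6 RPKM treated, against 41.0 RPKM (1.65-fold, 1.54 to 1.77), and Vegfa 83.7 RPKM treated, against 55.7 RPKM (1.50-fold, 1.42 to 1.60). Ndufa4l2 (1.51-fold), Adm (1.59-fold), Egln3 (1.25-fold) and Bnip3 (1.17-fold) also had intervals above 1. Ddit4 had 227 RPKM treated, against 288 RPKM untreated, and Ankrd37 had 29.8 RPKM, against 40.7 RPKM. In both of these the treated level was lower, at 0.786-fold (0.751 to 0.822) for Ddit4 and 0.730-fold (0.618 to 0.863) for Ankrd37. By the size rule Car9 alone was higher, with 57 reads treated against 17 untreated, a ratio of 3.37 (1.93 to 6.18), so that 1 of 10 genes passed where 3.86% of 12787 genes did, and 0 were lower where 1.22% were.

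The same treatment was compared in Erk KO cells after 96 hours without Dox. Ndrg1 had 69.3 RPKM with PD0325901, against 49.3 RPKM without it, or 1.40-fold (1.31 to 1.50). Vegfa had 37.5 RPKM, against 29.5 RPKM (1.27-fold, 1.17 to 1.38), Egln1 27.4 RPKM, against 22.2 RPKM (1.23-fold, 1.12 to 1.36), and Bnip3 276 RPKM, against 244 RPKM (1.13-fold, 1.09 to 1.18). The intervals of the other 6 included 1, among them Ankrd37 at 1.05-fold (0.869 to 1.26) and Car9 with 16 reads against 15. None of the 10 genes passed the size rule in either direction, where 1.34% of 11920 genes were higher and 0.587% lower. Car9 could not be assessed, at 0.83 RPKM with PD0325901 and 0.77 RPKM without it. Set side by side, the fold in the KH2 pair exceeded that in the Erk KO pair beyond counting error for 6 genes, by 1.34-fold for Ndrg1 (1.21 to 1.48) and for Egln1 (1.19 to 1.50), was lower for Ankrd37 at 0.697-fold (0.541 to 0.897), and could not be told apart for Bnip3, Adm and Ddit4. The same count was not made over all genes. By the size rule 3.86% of all genes were higher in the KH2 pair and 1.34% in the Erk KO pair. The lower shares were 1.22% and 0.587%, so nothing particular to the 10 genes is read from the count. With 1 library per group it also says nothing of the spread between cultures.

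**Figure D3:**
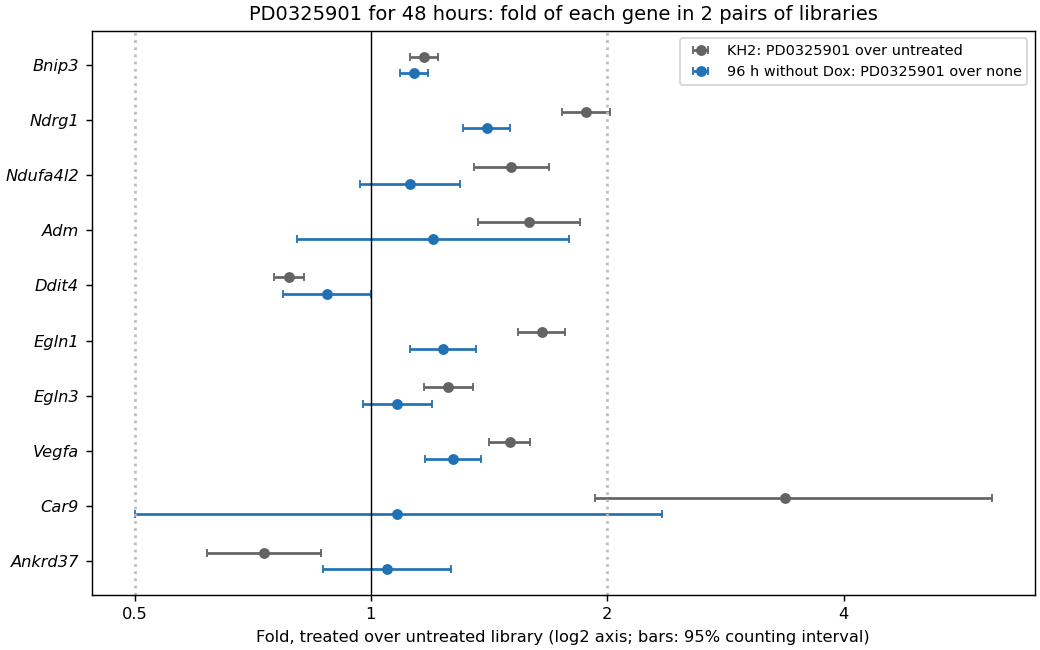
Fold of each gene with PD0325901 over without it (log2 axis) in KH2 cells and in the engineered line after 96 hours without Dox, with 95% counting intervals and dotted lines at 2-fold. Ndrg1, Egln1, Vegfa and Bnip3 lie above 1 in both pairs with intervals that exclude 1, Ddit4 lies below 1 in both with an interval that includes 1 in Erk KO cells, and Ankrd37 is at 0.730-fold in KH2 cells and 1.05-fold in Erk KO cells.

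Over both pairs the inhibitor's effect was tested with edgeR's quasi-likelihood test, with cell state as a term and Benjamini-Hochberg adjustment over 14782 genes. Of the 10 genes 3 rose, where 6.05% of all genes did, and 0 fell, where 2.92% did. The log2 fold change by edgeR was 0.70 for Ndrg1 (SE 0.113, adjusted p = 0.000938), 0.52 for Egln1 (SE 0.115, adjusted p = 0.00929) and 0.47 for Vegfa (SE 0.103, adjusted p = 0.00856), and these 3 genes were higher in both pairs. Adm (0.55, adjusted p 0.0654), Ndufa4l2 (0.40, adjusted p 0.0712), Car9 (1.11, adjusted p 0.115) and Ddit4 (−0.27, adjusted p 0.101) missed the edgeR threshold. At an unadjusted p under 0.05, edgeR had 8 of the 10 higher and 1 lower, where 3327 of 14782 genes passed in either direction. DESeq2 called 1 of the 10 higher after adjustment, Ndrg1, and 0 lower, where 2.48% of 13635 genes were higher and 0.755% lower. Unadjusted, DESeq2 had 3 of the 10 higher and 0 lower, where 1340 genes passed in either direction. The median log2 fold change of the 10 genes was 0.43, beside −0.01 over all genes tested. The fit has 1 residual degree of freedom, so its spread is mostly borrowed across genes. That degree of freedom holds the difference in effect between the 2 pairs, so the adjusted p-values do not measure spread between replicate cultures. For Ndrg1, Egln1 and Vegfa the fold differed between the pairs beyond counting error, by 1.34-fold, 1.34-fold and 1.18-fold. Fibroblast markers moved with the treatment, at a summed 4003 RPKM treated, against 960 RPKM untreated, in KH2 cells and 1268 RPKM treated, against 378 RPKM, in Erk KO cells, and 14 of 16 passed as higher by edgeR. Their part in the results for Ndrg1, Egln1 and Vegfa was not tested.

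The genes of the HIF pathway itself were listed separately. Of 15 such genes 1 was lower with Dox than in KH2 cells, Hif3a at 1.21 RPKM, against 3.64 RPKM, and 0 were higher. Over all genes 21.4% were lower and 2.76% higher. The calls on the 15 genes depend on the scaling: with TMM 0 were lower and 2 higher, as Hif3a moved from a log2 ratio of −1.28 to −0.95, Hif1a from 0.91 to 1.31 and Crebbp from 0.74 to 1.12. The median log2 ratio of the 15 was −0.02, beside −0.37 for all genes, and it was 0.37 with TMM scaling. Hif1a, the oxygen-regulated alpha subunit gene, had 53.5 RPKM with Dox, 41.1 RPKM after 48 hours and 28.0 RPKM after 96 hours. In untreated KH2 cells it had 28.2 RPKM and in treated ones 48.5 RPKM. Its RNA was thus highest with Dox, where the 10 genes were low. It was also higher in treated than in untreated KH2 cells, where 8 of the 10 genes were higher and 2 lower. Epas1, which encodes the related subunit HIF-2 alpha, had 11.9, 16.3 and 29.7 RPKM at the 3 times and 9.74 RPKM in KH2 cells. It was the 1 gene of the 15 that passed as higher at 96 hours, where 7.62% of all genes did. Of the 15, 0 were lower with library totals and 1 with TMM, Hif1a at a log2 ratio of −1.03. HIF alpha is mainly controlled at the protein level, which these data do not measure.

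With library totals none of the remaining pathway genes passed the size rule between Dox and KH2 cells. Arnt, the partner subunit, had 31.3 RPKM with Dox and 34.8 RPKM in KH2 cells, and Vhl, which recognises the hydroxylated subunit, had 6.03 RPKM and 11.6 RPKM. After 96 hours Arnt had 27.1 RPKM and Vhl 10.1 RPKM. Elob (166 RPKM with Dox, 329 RPKM in KH2 cells), Eloc (85.9 and 74.4 RPKM), Cul2 (46.0 and 36.6 RPKM) and Rbx1 (29.5 and 45.5 RPKM), the other subunits of the Vhl ligase, did not pass. The same held for the hydroxylase genes Egln2 (log2 ratio −0.02) and Hif1an (−0.29), the coactivator genes Ep300 (0.11) and Crebbp (0.74), the inhibitor gene Cited2 (0.50) and Arnt2 (−0.48). With PD0325901, edgeR's common test put 2 of the 15 higher and 0 lower, where 6.05% of all genes were higher and 2.92% lower. By edgeR Hif1a had a log2 fold change of 0.57 (adjusted p 0.00487) and Cited2 of 0.50 (adjusted p 0.0468).

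Other genes known to respond to hypoxia were also often lower with Dox and higher at 96 hours without it. Of 36 such genes outside glycolysis 25 were lower with Dox than in KH2 cells and 0 higher. Over all genes 21.4% were lower and 2.76% higher. The median log2 ratio of the list was −1.65, beside −0.37 for all genes. After 96 hours without Dox 16 were higher than with it and 0 lower, where 7.62% of all genes were higher and 2.07% lower. The list median there was 0.99, beside 0.05 for all genes. After 48 hours 1 was higher, Kdm3a, and 2 were lower, where 2.77% of all genes were higher and 2.13% lower. Ero1a, an oxidase for protein folding, had 24.2 RPKM with Dox and 112 RPKM after 96 hours, against 164 RPKM in KH2 cells. Plod2, a collagen lysyl hydroxylase, had 30.8, 95.9 and 96.2 RPKM in the same order, Bnip3l, the paralog of Bnip3, had 34.3, 72.4 and 80.6 RPKM, and the iron uptake receptor gene Tfrc had 81.7, 240 and 212 RPKM. Among the rest, Loxl2 (6.95, 23.7 and 55.5 RPKM) and Lox (9.64, 22.9 and 94.0 RPKM) were lower with Dox and partly back, while Ak4, a mitochondrial adenylate kinase gene, had 29.9, 67.2 and 32.7 RPKM. Lox is also on the fibroblast list. Lox and Loxl2 were among the 6 of these 36 genes higher with PD0325901 in KH2 cells, where 3.86% of all genes were. By edgeR's common test 12 of the 36 were higher with PD0325901 and 1 lower, where 6.05% of all genes were higher and 2.92% lower. A rise with PD0325901 was thus not particular to the 10 genes.

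Of 19 glycolytic hypoxia-induced genes 13 were lower with Dox than in KH2 cells (9 with TMM scaling), where 21.4% of all genes were lower. Among the 13 were Pgk1 at 426 RPKM, against 1665 RPKM, Slc2a1 at 127 RPKM, against 484 RPKM, and Ldha at 612 RPKM, against 1467 RPKM. After 96 hours 4 of the 19 were higher than with Dox (Slc16a3, Aldoc, Pfkp and Pfkfb3, named after their values were seen), where 7.62% of all genes were. The median log2 ratio of the list was 0.55, beside 0.05 for all genes. With PD0325901 0 of the 19 passed the size rule in either pair. Such calls were rare among all genes too. The KH2 pair had 3.86% higher and 1.22% lower, the Erk KO pair 1.34% and 0.587%. A count of 0 lies near these shares, so it does not set the list apart. Of the 19, edgeR's common test called 1 higher and 1 lower, where 6.05% of all genes were higher and 2.92% lower. Both are named after their values were seen. By edgeR, Pfkfb3 had a log2 fold change of 0.49 (adjusted p = 0.0158) and Pdk1, whose product inhibits pyruvate dehydrogenase, of −0.72 (adjusted p = 0.000126).

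**Figure D4:**
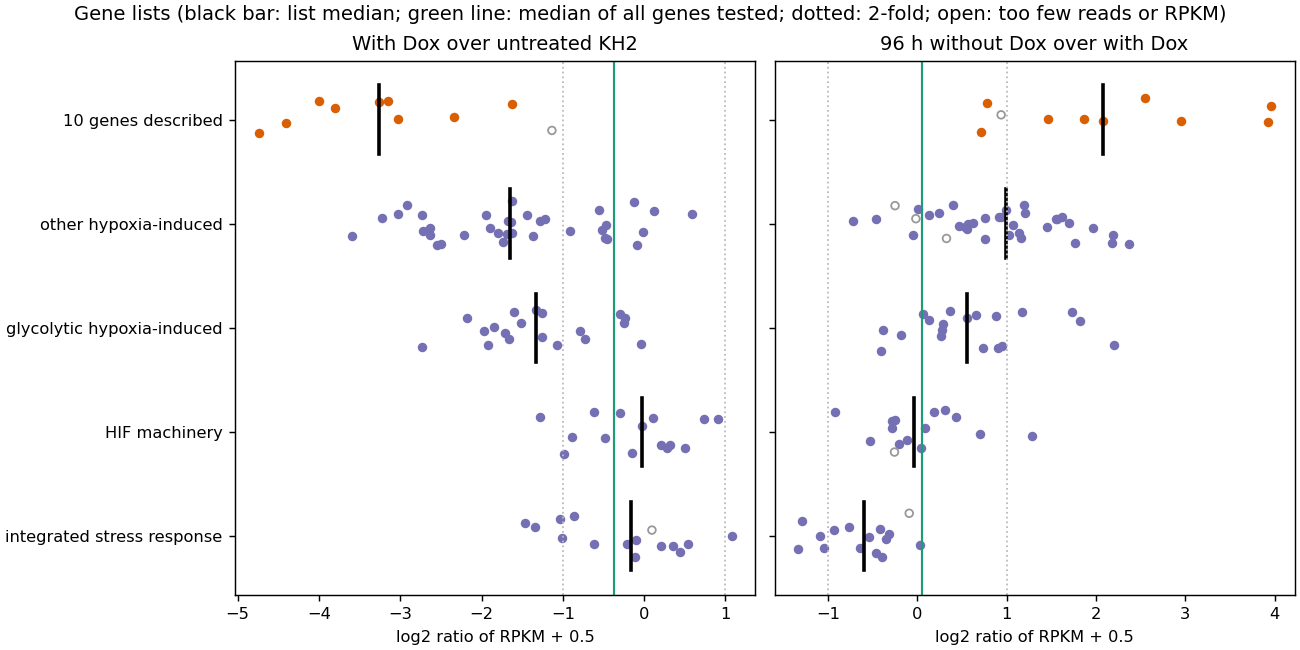
Log2 ratio of RPKM plus 0.5 for each gene of 5 lists, with Dox over untreated KH2 cells on the left and 96 hours without Dox over Dox on the right (black bars, medians of genes assessed; green line, median of all genes; open points, too few reads or RPKM). The list medians on the left are −3.26 for the 10 genes, −1.65 for the other hypoxia-induced genes and −1.33 for the glycolytic ones, while the HIF machinery lies at −0.02.

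Since Ddit4 also responds to amino acid and endoplasmic reticulum stress and to p53, those lists were set beside it. Of 15 genes of the integrated stress response 1 was higher with Dox than in KH2 cells, the regulator gene Atf4 at 354 RPKM, against 167 RPKM, and 4 were lower, namely Ddit3 (15.7 RPKM, against 32.7 RPKM), Atf3, Chac1 and Sesn2. With TMM scaling 1 was lower, and a count of 4 lies near the 21.4% of all genes that were lower in this comparison. After 48 hours without Dox 3 were lower than with it and 0 higher, where 2.13% of all genes were lower and 2.77% higher. After 96 hours without Dox 4 were lower than with it (Atf4, Atf5, Trib3 and Chac1) and 0 higher, where 2.07% of all genes were lower and 7.62% higher. The median log2 ratio of the 14 stress response genes assessed was −0.72 at 48 hours and −0.59 at 96 hours. Atf5, for one, had 8.33 RPKM after 96 hours, against 18.3 RPKM with Dox. Of 14 p53 targets 6 were lower with Dox than in KH2 cells, including Cdkn1a at 27.8 RPKM, against 72.3 RPKM, and 2 were higher after 96 hours, Trp53inp1 and Tap1. With TMM scaling these counts were 3 and 1, and the share of all genes was 21.4% lower against KH2 and 7.62% higher after 96 hours. With PD0325901, edgeR's common test put 4 of the 15 stress response genes and 4 of the 14 p53 targets higher. In both lists 0 were lower, where 6.05% of all genes were higher and 2.92% lower.

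Among paralogs and receptors of the 10 genes, some ran in parallel with the genes and some did not. Of 26 such genes 9 were lower (7 with TMM scaling) and 1 was higher with Dox than in KH2 cells, where 21.4% of all genes were lower and 2.76% higher. Ndrg2 (4.04 RPKM, against 28.8 RPKM) and Ndrg4 (3.12 RPKM, against 14.0 RPKM) were lower, as was Pgf, a Vegf family ligand, at 0.80 RPKM, against 9.36 RPKM. The gene that was higher, Vegfc, a lymphatic growth factor, had 14.9 RPKM with Dox, against 4.80 RPKM in KH2 cells. After 96 hours 6 were higher than with Dox (4 with TMM scaling) and 2 lower (3 with TMM scaling), where 7.62% of all genes were higher and 2.07% lower. Among the 6 were Ndrg2 at 11.3 RPKM and Car12 at 3.35 RPKM, against 0.34 RPKM. Car2 (7.06 RPKM, against 21.8 RPKM) and Car4 were lower. The Vegf receptor gene Flt1 was low throughout, at 1.03 RPKM with Dox and 2.77 RPKM in KH2 cells.

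The Pearson r of a gene with the mean centred log2 profile of the other 9 ran from 0.834 for Ddit4 and 0.882 for Ndrg1 to 0.981 for Egln3. Of 5048 other genes with at least 200 reads in all and a 2-fold range, the 10 with the highest r to the mean of the 10 genes were Pm20d1 (0.998), Crocc, Igf2r, Rb1, Pex26, Khnyn, Prrc1, Fam210b, Cryl1 and Abtb1 (0.993), each over 6 libraries. Their log2 ranges were smaller, 1.02 to 2.44 beside 2.21 to 5.33 for the 10 genes. Khnyn had 4.72, 6.78 and 14.4 RPKM with Dox and after 48 and 96 hours, and 22.5 RPKM in KH2 cells. Libraries share their depth and scaling across genes, and r is given as a description of 6 points. The 10 genes were chosen for a shared course in these libraries. High r among them was thus favoured by that choice, and nothing is read from it.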

How the data were processed

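PolyA RNA of 6 mouse ESC cultures, 1 library per group, was sequenced on an Illumina HiSeq instrument with single reads of 50 bases, per the labels' protocols. The authors deposited for each gene the count of uniquely mapped reads, the RPKM and the coverage of its length in percent. Reads were placed on mm9 according to the submitters' processing notes. The aligner and the gene annotation are not given in the sources used here. Which part of Mapk3 the knockout removes cannot be seen from gene totals. Some genes that the naming rule takes are not reported here.

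Tables were joined by gene ID, and symbols for 18805 of 18857 genes came from RefSeq, since 4 of the 6 tables have none. Those 4 are the tables of the engineered line, so the file format splits with the cell line. Library totals are sums of the deposited counts. Ratios of 2 libraries carry exact Clopper-Pearson intervals (95%) given the library totals, computed with scipy 1.17.1 in Python 3.11.15. The size rule was applied to all genes in 8 comparisons. The common effect of PD0325901 was tested on counts with edgeR 4.0.16 (quasi-likelihood, TMM, cell state as a term, genes with at least 20 reads over the 4 libraries) in R 4.3.3, with DESeq2 1.42.0 as an alternative, after the scripts were tested on simulated data. Promoter windows are RefSeq sequences on GRCm38.p6.

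Genes named in the text are the 10 genes, all of the HIF machinery list, from each other list up to 8 genes that passed the size rule for Dox against KH2 or 96 hours against Dox (most reads first), from marker lists the 3 with most reads, and the 10 genes most alike in profile. Others named are those behind small counts, picked after their values were seen. The 10 genes and the lists were chosen with earlier results of these data known.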

Additional observations from a re-analysis of the deposited data

Results flagged for a closer look

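Ankrd37 had ratios of opposite sign with PD0325901 in the 2 cell states. Its log2 ratio of RPKM plus 0.5 was −0.447 in KH2 cells (248 reads treated, against 341 untreated) and 0.067 in Erk KO cells (234 reads treated, against 226). It is listed because the signs differ, and with 1 library per group the difference between cell states was not tested against replicates. The interval in Erk KO cells included no change.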

How the results depend on the processing

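The counts of the 10 genes in the 8 comparisons of library pairs were within 1.5 times of the reported ones with a pseudocount of 0.1 or 1, without the filter on low values, and with TMM or DESeq2 scaling, though single calls moved: Ndufa4l2 after 48 hours was lost with a pseudocount of 1, and Vegfa in the treated 96 hour library against Dox with either scaling. Counts of the lists with TMM scaling, added after seeing the data, stand beside the counts in the report that they moved by more than 1.5 times. Counts over all genes moved more. With TMM scaling Dox against KH2 had 1008 genes higher and 1434 lower, and with DESeq2 size factors 1143 and 1335, in place of 343 and 2662. For 96 hours against KH2 they were 1025 and 1174 with TMM and 1074 and 1139 with DESeq2 size factors, in place of 541 and 2016. A pseudocount of 0.1 gave 275 lower with PD0325901 in KH2 cells (156 reported), 112 lower in Erk KO cells (70 reported) and 89 lower for 96 against 48 hours (55 reported). A pseudocount of 1 gave 44 lower with PD0325901 in Erk KO cells, 160 lower for 48 hours against Dox (242 reported), and 314 higher and 35 lower for 96 against 48 hours (533 and 55 reported).

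The common PD0325901 test depended on its design. Over all genes DESeq2 called 338 higher and 103 lower, and 1 of the 10 genes, with an adjusted p of 0.107 for Egln1 and 0.118 for Vegfa. DESeq2 size factors in edgeR gave 5 of the 10 higher, adding Ndufa4l2 and Adm. Over all genes that setting had 1122 higher (7.59%) in place of 894 (6.05%), and 665 lower (4.5%) in place of 432 (2.92%). Without the cell state term edgeR called 0 of the 10, and 0 genes higher and 0 lower, with 270 at an unadjusted p under 0.05. With all 6 libraries in 3 cell states edgeR called 0 of the 10, and 103 genes higher and 15 lower, while 1690 genes had an unadjusted p under 0.05. There Ddit4 had a log2 fold change of 0.012 and Ankrd37 of 0.168, opposite in sign to −0.27 and −0.20. The 48 and 96 hour libraries without Dox share 1 state in that fit, so their differences enter its spread. Leaving out either pair leaves no residual degree of freedom and gives no test. No paired analysis was possible because the labels give no replicate numbers, apart from the cell state term above, which sets each treated library against the untreated one of its state and on which the calls rest. Depth limits Car9 and Adm most, with 3 and 8 reads in the Dox library.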
